A study of Mus musculus with 12 samples.

Results

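The major histocompatibility complex (MHC) and antigen presentation genes of mouse were followed across 4 groups of a cultured B cell lymphoma. They were taken as every gene whose symbol starts with H2-, together with 14 named genes of peptide transport, assembly and transcription, which are B2m, Tap1, Tap2, Tapbp, Tapbpl, Erap1, Nlrc5, Ciita, Cd74, Ifi30, Cd1d1, Rfx5, Rfxap and Rfxank. Of 23479 genes listed, 58 matched, 44 of them by the H2- prefix, and 33 reached 10 normalized counts in 3 or more of the 12 libraries. The other 25 are all H2- genes and were not tested.

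The cells came from 1 lymphoma of a C57BL/6 mouse transgenic for Eµ-Myc and Eµ-rtTA, in which the Eµ immunoglobulin enhancer drives Myc and the rtTA activator in B cells, and all groups carry both transgenes. TFEB cells had received a retrovirus coding for puromycin resistance and for TFEB fused to ERT2, and vector cells had received the empty puromycin vector. TFEB is a transcription factor of lysosomal genes, the fused form has its serine 211 changed to alanine, and ERT2 is an altered piece of the human estrogen receptor that binds 4-hydroxytamoxifen (4-OHT) and so switches the fusion on. Total RNA was sequenced in 4 groups of 3 libraries: TFEB cells with 4-OHT, TFEB cells with vehicle, vector cells with 4-OHT and vector cells with vehicle. All cells were grown with IL-7 and treated for 4 days. The 4-OHT dose is uncertain, being 250 nM in the protocol but 250 ng/mL in the series text. Each group is a set of repeats of 1 transduced lymphoma as far as the labels say, and separate cultures are not stated, so p-values measure the spread between these libraries and may be technical.

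Class I molecules consist of a polymorphic heavy chain, such as H2-K1 or H2-D1, and the light chain B2m. Peptides cut in the cytosol enter the endoplasmic reticulum through the Tap1-Tap2 transporter, are trimmed by Erap1 and are loaded with the help of Tapbp, and cytotoxic T cells read the result. Class II molecules consist of an alpha and a beta chain that travel with the invariant chain Cd74 to endosomes, where H2-DM exchanges a Cd74 fragment for peptide, H2-O restrains H2-DM, and helper T cells read the result. The RFX proteins and NF-Y bind promoters of both classes, with Nlrc5 as the coactivator of class I and Ciita as that of class II. C57BL/6 mice are known to make no E molecule, since their E alpha chain gene, listed as H2-Ea-ps, is defective.

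Promoter sequences of 5 genes are shown because these genes carry the changes described below and differ in the letters marked in capitals. Each runs 5′ to 3′ from 250 bases before to 50 bases after the RefSeq start of the gene in GRCm38.p6. Capitals mark ATTGG or its complement CCAAT, the Y box letters bound by NF-Y, in B2m, H2-D1, H2-Aa and H2-Ob. In B2m they also mark GAAANNGAA, letters of the interferon-stimulated response element, in H2-Aa TGACGTCA, the cyclic AMP response element that the X2 box resembles, and in Ifi30 TCACGTGA, a sequence that TFEB is known to bind. The B2m promoter lies at chr2:122147437-122147736 and that of H2-D1 at chr17:35262844-35263143, both on the plus strand. That of H2-Aa lies at chr17:34287774-34288073 on the minus strand, that of H2-Ob at chr17:34238655-34238954 on the plus strand and that of Ifi30 at chr8:70766614-70766913 on the minus strand.
B2m: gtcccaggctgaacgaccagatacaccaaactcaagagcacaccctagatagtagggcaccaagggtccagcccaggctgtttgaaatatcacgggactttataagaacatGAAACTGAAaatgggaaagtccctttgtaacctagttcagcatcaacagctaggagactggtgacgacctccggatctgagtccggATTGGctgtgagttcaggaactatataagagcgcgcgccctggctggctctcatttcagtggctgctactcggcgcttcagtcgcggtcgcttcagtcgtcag
H2-D1: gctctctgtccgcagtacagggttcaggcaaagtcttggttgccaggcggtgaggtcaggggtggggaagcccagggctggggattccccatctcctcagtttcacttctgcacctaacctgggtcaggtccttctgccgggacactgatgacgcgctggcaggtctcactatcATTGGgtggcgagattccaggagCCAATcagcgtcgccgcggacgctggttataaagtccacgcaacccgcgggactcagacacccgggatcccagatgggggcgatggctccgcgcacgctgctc
H2-Aa: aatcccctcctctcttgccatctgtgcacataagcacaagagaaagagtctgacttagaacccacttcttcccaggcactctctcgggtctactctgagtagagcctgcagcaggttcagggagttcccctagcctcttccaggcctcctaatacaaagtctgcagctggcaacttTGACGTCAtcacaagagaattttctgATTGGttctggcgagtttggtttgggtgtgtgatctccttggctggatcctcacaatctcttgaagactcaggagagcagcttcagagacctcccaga
H2-Ob: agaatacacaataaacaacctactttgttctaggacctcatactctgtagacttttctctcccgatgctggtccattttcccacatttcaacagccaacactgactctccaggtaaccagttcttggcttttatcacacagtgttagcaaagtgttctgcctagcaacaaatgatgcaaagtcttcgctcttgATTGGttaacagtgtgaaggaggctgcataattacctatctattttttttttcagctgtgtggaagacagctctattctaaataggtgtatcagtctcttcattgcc
Ifi30: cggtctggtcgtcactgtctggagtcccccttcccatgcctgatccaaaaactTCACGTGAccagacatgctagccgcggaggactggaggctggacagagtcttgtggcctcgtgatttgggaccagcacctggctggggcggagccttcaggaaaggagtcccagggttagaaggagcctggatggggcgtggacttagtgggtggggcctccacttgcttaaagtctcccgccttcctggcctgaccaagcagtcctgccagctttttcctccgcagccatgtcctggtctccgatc

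Among the 33 genes, 21 had a RefSeq promoter in the table used, with 24 promoters in all, and letters were searched on both strands. The other 12 had none and were not searched. They are Cd1d1, Cd74, Ciita, H2-Ab1, H2-K2, H2-Q5, H2-T10, H2-T24, Nlrc5, Rfxap, Tap2 and Tapbpl. ATTGG was found in 19 of these 24 promoters (79.2%), against 37.4% of all 32851 promoters of the same length. It was in 9 of 10 class I and 9 of 11 class II promoters. Its first base stood at position -53 from the start in B2m, -57 in H2-Ob and -48 in H2-Aa, and H2-D1 held it at -76 and -53. CACGTG was in 2 of 24 (8.33%), in Ifi30 and Erap1, against 7.15% of all promoters, and the longer TCACGTGA, which contains it, was in Ifi30 alone, 1 of 24, against 0.974%. TGACGTCA was in 1 of 24, H2-Aa, against 1.79%, and GAAANNGAA in 3 of 24, B2m, Erap1 and H2-T23, against 8.56%. These matches describe letters in a window and say nothing of binding.

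Libraries held 11849029 to 22109283 reads, and 11390 to 19250 genes had at least 1 read in a library. The Tfeb row averaged 665 ± 72.6 normalized counts in TFEB cells with 4-OHT, 1676 ± 249 in TFEB cells with vehicle, 221 ± 23.4 in vector cells with 4-OHT and 243 ± 17.7 in vector cells with vehicle (SD, n = 3 each). It was higher in TFEB than in vector cells in both media, and within TFEB cells it was lower with 4-OHT than with vehicle. The row does not tell the fusion from the endogenous gene. B lineage markers, 9 of 10 of which passed the filter, summed to 30477 to 32300 normalized counts in TFEB cells with 4-OHT, 39809 to 42437 in TFEB cells with vehicle, 40773 to 43681 in vector cells with 4-OHT and 40648 to 42701 in vector cells with vehicle. In TFEB cells under 4-OHT all 9 tested passed at an adjusted p under 0.05, 3 higher and 6 lower, against 27.5% of all genes tested (13.7% higher and 13.9% lower). T and NK cell markers summed to 12.2 to 86.5 across all libraries. Fibroblast and endothelium markers summed to 694 to 861 in TFEB cells with 4-OHT and 834 to 869 with vehicle. In vector cells they summed to 910 to 946 with 4-OHT and 814 to 845 with vehicle. Pecam1 made up most of this, at 684, 805, 852 and 809 on average, groups in that order. Of the macrophage markers, only Lyz2 and C1qa stayed under 10 everywhere, and Mrc1 averaged 34.5, 145, 114 and 99.7 in the same groups. In bulk RNA, fewer cells of a kind and less RNA per cell cannot be told apart.

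With 4-OHT in TFEB cells, the genes that passed the test mostly rose in both classes, and 2 of each class fell. The class I genes that rose did so by 1.26 to 1.67 times. The classical heavy chains H2-K1 and H2-D1, the light chain B2m, the coactivator Nlrc5 and Tap2, Tapbp and Erap1 rose. H2-T24 and the lipid-presenting Cd1d1 fell. Of class II, the alpha chain H2-Aa, Cd74, Ifi30 and Rfx5 rose, and the beta chain H2-Ab1 and the inhibitory H2-Ob fell. In all 15 of 33 passed at an adjusted p under 0.05 (limma, adjusted over 13111 genes), 11 higher and 4 lower, against 27.5% of all genes tested (13.7% higher and 13.9% lower). Class I gave 7 higher and 2 lower of 17 with a median log2 change of 0.36, class II gave 4 higher and 2 lower of 14 with a median of 0.33, and all genes had a median of 0.04. Groups did not overlap for 20 of the 33 genes, against 38% of all genes. A fold change is on the scale of log2(value + 1). Since the genes share comparisons and control libraries, no correlation between comparisons is given.

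**Figure D1:**
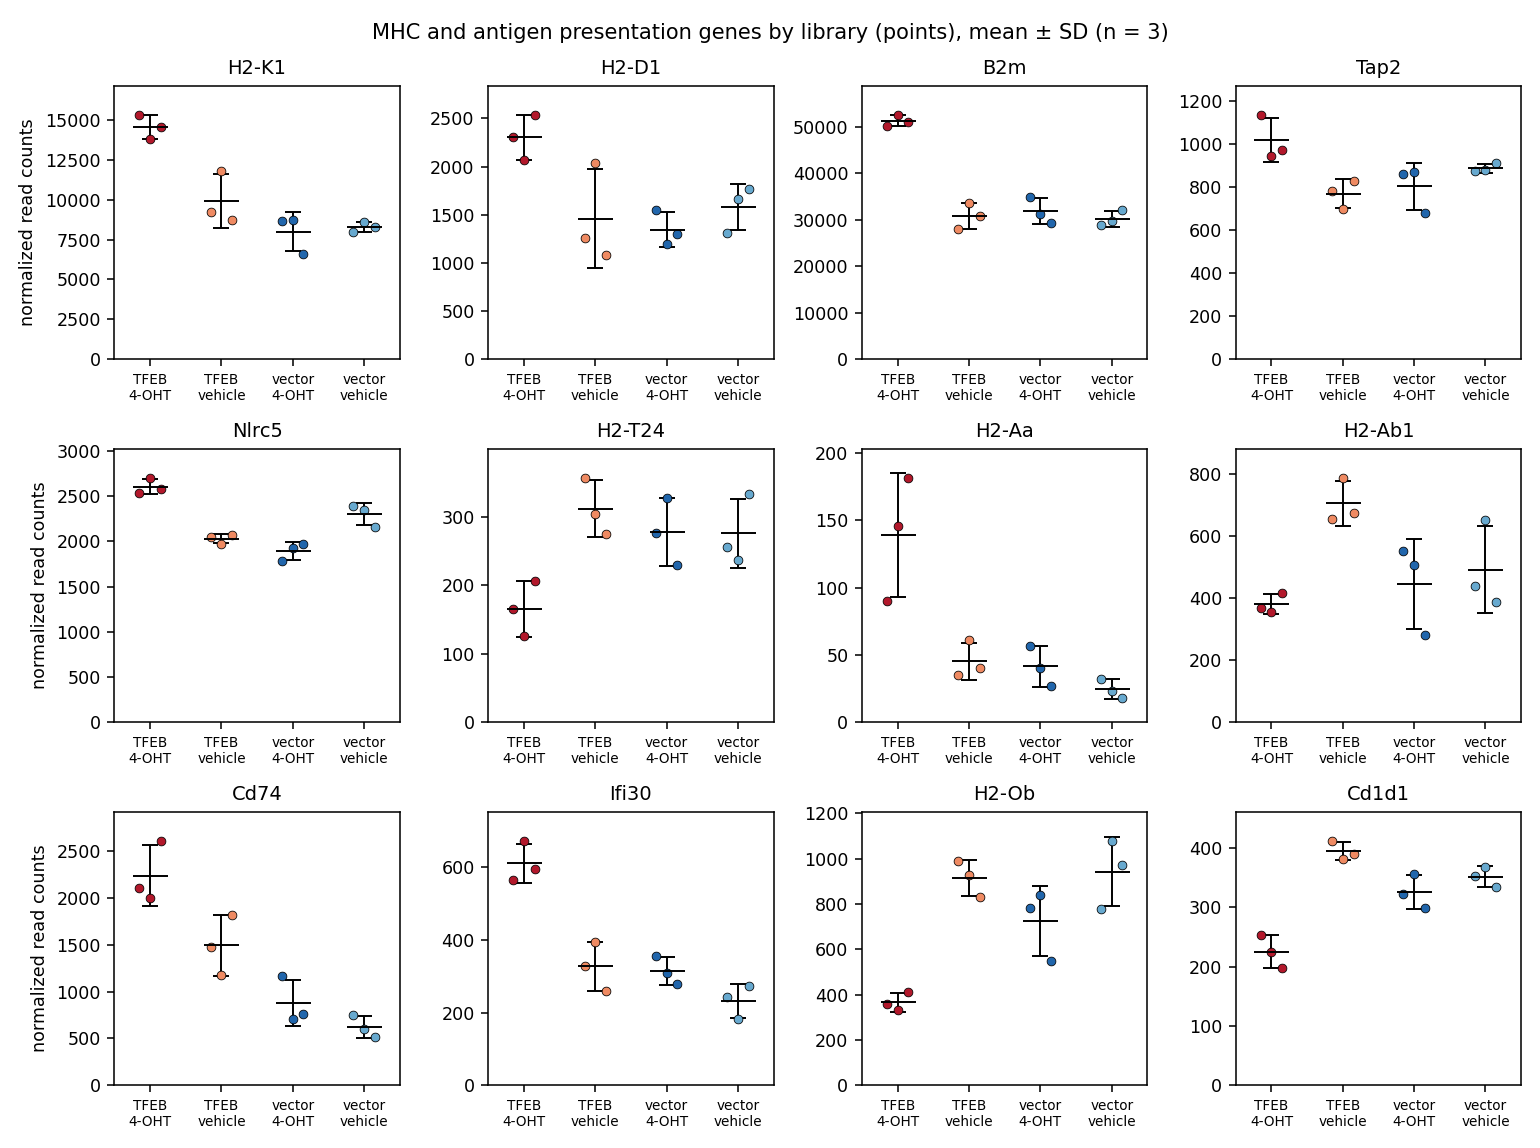
Normalized read counts (y axes, from 0) of 12 genes in the 12 libraries (points), with group mean and SD (bars, n = 3), in TFEB cells with 4-OHT, TFEB cells with vehicle, vector cells with 4-OHT and vector cells with vehicle from left to right. The TFEB 4-OHT points lie above those of TFEB cells with vehicle for H2-K1, H2-D1, B2m, Tap2, Nlrc5, H2-Aa, Cd74 and Ifi30 and below them for H2-T24, H2-Ab1, H2-Ob and Cd1d1.

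Among the class I heavy chains, 9 of 32 matched genes passed the filter. H2-K1, the K heavy chain at chr17:33996017-34000347 (GRCm38, as for every gene position given), had 15317, 13793 and 14603 normalized counts in the TFEB 4-OHT libraries, 9210.5, 11828 and 8707 in the TFEB vehicle libraries, 8687, 8722 and 6599.9 in the vector 4-OHT libraries and 7965, 8579 and 8268 in the vector vehicle libraries. All 3 TFEB 4-OHT libraries were above all other libraries, and H2-K1 rose 1.48-fold with 4-OHT (log2 change 0.57 ± 0.10 SE, limma adjusted p = 5.6e-05). H2-D1, the D heavy chain at chr17:35262730-35267499, had 2303, 2070.4 and 2534 normalized counts in the TFEB 4-OHT libraries, 1257, 2041 and 1078 in the TFEB vehicle libraries, 1545, 1195 and 1294 in the vector 4-OHT libraries and 1309.7, 1661 and 1762 in the vector vehicle libraries. The TFEB 4-OHT libraries did not overlap the TFEB vehicle libraries, of which library 2 lay just below them, and the rise was 1.63-fold (log2 change 0.71 ± 0.15 SE, limma adjusted p = 0.000462). Per kilobase of annotated exon, H2-K1 was the most abundant heavy chain and averaged 4959.6 ± 259.5 normalized counts per kilobase in TFEB cells with 4-OHT, 3375 ± 570.3 in TFEB cells with vehicle, 2724 ± 414 in vector cells with 4-OHT and 2815 ± 104 in vector cells with vehicle (SD, n = 3 each). H2-D1 averaged 893 ± 89.9 normalized counts per kilobase in TFEB cells with 4-OHT, 566 ± 199 in TFEB cells with vehicle, 521 ± 69.9 in vector cells with 4-OHT and 612 ± 92 in vector cells with vehicle (SD, n = 3 each). H2-K1 made up 70.6% ± 1.43 of the normalized counts of the 9 heavy chains in TFEB cells with 4-OHT, 66.6% ± 1.25 in TFEB cells with vehicle, 62.7% ± 1.23 in vector cells with 4-OHT and 60.5% ± 0.274 in vector cells with vehicle (SD, n = 3 each).

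H2-T24, a heavy chain gene of the T region, went the other way and had 165, 125 and 207 normalized counts in the TFEB 4-OHT libraries, 356, 304 and 275 in the TFEB vehicle libraries, 277, 327 and 229 in the vector 4-OHT libraries and 257, 238 and 334 in the vector vehicle libraries. Its TFEB 4-OHT libraries were below all 9 others, and it fell 1.91-fold (log2 change -0.93 ± 0.22 SE, limma adjusted p = 0.00172). Without vector 4-OHT library 2, TFEB vehicle library 1 and TFEB 4-OHT library 2, which hold the most genes with reads in their groups and were chosen after the data were seen, its adjusted p was 0.0911. The other 6 did not pass in this comparison. H2-T23, the Qa-1 chain seen by receptors of natural killer cells, had 869, 816 and 763 normalized counts in the TFEB 4-OHT libraries, against 643, 853 and 444 in the TFEB vehicle libraries. TFEB vehicle library 2 lay inside the 4-OHT range, and the log2 change was 0.38 ± 0.17 (limma adjusted p = 0.106, and 0.00834 without that library). H2-Q4 of the Q region had 1770.2, 1743 and 2012 normalized counts in the TFEB 4-OHT libraries, against 1611, 1859 and 1451 in the TFEB vehicle libraries. H2-M3, which presents formylated peptides, had 330.4, 421 and 457 normalized counts in the TFEB 4-OHT libraries, against 435, 521 and 384 in the TFEB vehicle libraries. Groups overlapped for both. Log2 changes were 0.17 for H2-Q4 and -0.15 for H2-M3.

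H2-K2, H2-Q5 and H2-T10 are annotated as transcribed pseudogenes in RefSeq. H2-Q5 had 244, 203 and 220.2 normalized counts in the TFEB 4-OHT libraries, 235, 182 and 118 in the TFEB vehicle libraries, 325, 336 and 211 in the vector 4-OHT libraries and 375, 332 and 358 in the vector vehicle libraries. The TFEB vehicle libraries were all below the vector vehicle libraries, whose range vector 4-OHT library 2 shared, and 4-OHT gave a log2 change of 0.37 in TFEB cells (limma adjusted p = 0.281). H2-K2 had 156, 207 and 209.5 normalized counts in the TFEB 4-OHT libraries, 137, 176 and 163 in the TFEB vehicle libraries, 114, 94.9 and 82.9 in the vector 4-OHT libraries and 134, 105 and 109 in the vector vehicle libraries. Every TFEB library was above every vector library. H2-T10 had 146, 98.1 and 139 normalized counts in the TFEB 4-OHT libraries, against 141, 134 and 182 in the TFEB vehicle libraries. Neither passed with 4-OHT in TFEB cells, at log2 changes of 0.26 for H2-K2 and -0.26 for H2-T10. Some heavy chain genes are near-identical copies of each other, so reads shared between such copies make the values of those genes uncertain, values of 0 included. Of the 23 heavy chain genes below the filter, H2-Q6, H2-Q7, H2-Q8, H2-Q9 and H2-T9 were at 0 in every library, where 3 reads would be 2.21 to 4.15 normalized counts. The highest value among the 23 was 42.9, of H2-Q1 in TFEB vehicle library 3.

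Of the assembly genes and the regulator of class I, 5 of 7 passed as higher with 4-OHT in TFEB cells and none as lower. Of all genes 13.7% passed as higher and 13.9% as lower. B2m, the class I light chain at chr2:122147686-122153083, had 50240.4, 52543 and 51172 normalized counts in the TFEB 4-OHT libraries, 28026, 33542 and 30828 in the TFEB vehicle libraries, 34914, 31282 and 29406 in the vector 4-OHT libraries and 28888, 29709 and 32195 in the vector vehicle libraries. All 3 TFEB 4-OHT libraries lay above every other library, and B2m rose 1.67-fold (log2 change 0.74 ± 0.09 SE, limma adjusted p = 1.59e-07). Nlrc5, the class I coactivator at chr8:94434356-94527272, had 2536, 2700.3 and 2582 normalized counts in the TFEB 4-OHT libraries, 2051, 1976 and 2068 in the TFEB vehicle libraries, 1787, 1927 and 1977 in the vector 4-OHT libraries and 2390.1, 2351 and 2162 in the vector vehicle libraries. No TFEB 4-OHT library overlapped any other group, and Nlrc5 rose 1.28-fold (log2 change 0.36 ± 0.09 SE, limma adjusted p = 0.00151). The calls of H2-K1, B2m and Nlrc5 held under each of the 22 alternatives, and that of H2-D1 under 21 of them.

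Of the transporter genes, Tap2 rose and Tap1 did not pass the test. Tap2 had 1133, 944 and 973 normalized counts in the TFEB 4-OHT libraries, 779.7, 696 and 829 in the TFEB vehicle libraries, 859.9, 868 and 677 in the vector 4-OHT libraries and 873, 877 and 910.1 in the vector vehicle libraries. Its TFEB 4-OHT libraries exceeded all others, with a rise of 1.32-fold (log2 change 0.40 ± 0.12 SE, limma adjusted p = 0.0118), and the adjusted p was 0.0904 without TFEB 4-OHT library 1 and 0.0611 without TFEB vehicle library 2. Tap1 had 1105, 1146 and 1023 normalized counts in the TFEB 4-OHT libraries, against 1361, 1238 and 1226 in the TFEB vehicle libraries. All its 4-OHT libraries were below all vehicle libraries, at a log2 change of -0.22 that missed the threshold (limma adjusted p = 0.108, DESeq2 0.0386). Tap1 shares exon bases with Psmb9, a subunit of the immunoproteasome on the opposite strand, and the sources used here do not give whether reads were counted by strand. The same holds for Ciita, Erap1, H2-DMa, H2-Oa, H2-Q4, H2-T10, Ifi30, Nlrc5, Rfx5, Rfxank, Tap2, Tapbp and H2-Ke2, which also share exon bases with a gene on the opposite strand.

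Tapbp, or tapasin, which holds empty class I at the transporter, had 820.0, 958 and 992 normalized counts in the TFEB 4-OHT libraries, against 796, 720.3 and 552 in the TFEB vehicle libraries. The groups did not overlap and the rise was 1.35-fold (log2 change 0.43 ± 0.14 SE, limma adjusted p = 0.0175), but the adjusted p was 0.064 without TFEB 4-OHT library 2, 0.0897 without TFEB 4-OHT library 3, 0.148 without TFEB vehicle library 3 and 0.0511 with edgeR. With no variance trend the limma adjusted p of Tapbp was 0.0979. Erap1, the trimming peptidase of the endoplasmic reticulum, had 2451, 2343 and 2242 normalized counts in the TFEB 4-OHT libraries, against 1979, 2124 and 1527 in the TFEB vehicle libraries. It rose 1.26-fold with groups that did not overlap (log2 change 0.33 ± 0.11 SE, limma adjusted p = 0.017), and the adjusted p was 0.0761 without TFEB 4-OHT library 1, 0.183 without TFEB vehicle library 3 and 0.0748 with edgeR. Fitting Erap1 with no variance trend gave a limma adjusted p of 0.112. Tapbpl, a tapasin relative that edits peptides, had 141, 173 and 184 normalized counts in the TFEB 4-OHT libraries, against 91.7, 118 and 176 in the TFEB vehicle libraries. TFEB vehicle library 3 lay within the 4-OHT range (log2 change 0.41, limma adjusted p = 0.434). B2m was 3.05 ± 0.237 times the summed counts of H2-K1 and H2-D1 in TFEB cells with 4-OHT, 2.75 ± 0.371 in TFEB cells with vehicle, 3.43 ± 0.286 in vector cells with 4-OHT and 3.08 ± 0.158 in vector cells with vehicle (SD, n = 3 each).

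Cd1d1, a class I-like chain that presents lipids to natural killer T cells, had 253, 225 and 197 normalized counts in the TFEB 4-OHT libraries, 411, 382 and 389.8 in the TFEB vehicle libraries, 323, 356 and 298 in the vector 4-OHT libraries and 353, 368 and 334 in the vector vehicle libraries. The TFEB 4-OHT libraries were below all 9 others, and Cd1d1 fell 1.76-fold (log2 change -0.81 ± 0.18 SE, limma adjusted p = 0.000548). The fall was called under each of the 22 alternatives.

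The class II chains of the A molecule moved apart. H2-Aa, the A alpha chain at chr17:34282744-34287823, had 90.4, 146 and 181 normalized counts in the TFEB 4-OHT libraries, 35.1, 60.8 and 40.1 in the TFEB vehicle libraries, 56.9, 40.3 and 27.1 in the vector 4-OHT libraries and 32.4, 22.8 and 18.3 in the vector vehicle libraries. Its TFEB 4-OHT libraries were the 3 highest of the 12, and it rose 2.99-fold (log2 change 1.58 ± 0.50 SE, limma adjusted p = 0.016). These values are low, and the adjusted p was 0.0609 without TFEB 4-OHT library 2, 0.107 without TFEB 4-OHT library 3, 0.0613 without TFEB vehicle library 1 and 0.15 without TFEB 4-OHT library 2, TFEB vehicle library 1 and vector 4-OHT library 2 together. H2-Ab1, the A beta chain at chr17:34257689-34269419, had 369, 355 and 417 normalized counts in the TFEB 4-OHT libraries, 655, 788 and 676 in the TFEB vehicle libraries, 552, 507 and 282 in the vector 4-OHT libraries and 439, 652 and 387 in the vector vehicle libraries. All TFEB 4-OHT libraries were below all TFEB vehicle libraries but within the range of the vector libraries, and H2-Ab1 fell 1.85-fold (log2 change -0.89 ± 0.20 SE, limma adjusted p = 0.000784), a call held under all 22 alternatives. Per kilobase of exon, H2-Ab1 was 4.35 ± 1.47 times H2-Aa in TFEB cells with 4-OHT, 23.9 ± 4.30 times in TFEB cells with vehicle, 16.1 ± 2.20 times in vector cells with 4-OHT and 31.2 ± 11.1 times in vector cells with vehicle (SD, n = 3 each). The TFEB 4-OHT ratios were 6.04, 3.60 and 3.40, and the lowest ratio of any other library was 14.3. Before division by exon length, H2-Ab1 averaged 2.94, 16.1, 10.9 and 21.1 times H2-Aa, groups in the same order.

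The E beta chain genes were transcribed at a low level. H2-Eb1 had 87.2, 54.2 and 49.5 normalized counts in the TFEB 4-OHT libraries, against 31.7, 44.8 and 27.6 in the TFEB vehicle libraries. The groups did not overlap, and a log2 change of 0.84 ± 0.51 missed the threshold (limma adjusted p = 0.252). H2-Eb2 had 211, 231 and 130.0 normalized counts in the TFEB 4-OHT libraries, against 136, 160.1 and 169 in the TFEB vehicle libraries. TFEB 4-OHT library 3 was the lowest of the 6, and the log2 change was 0.26 (limma adjusted p = 0.636). H2-Ea-ps did not pass the filter and reached 3.88 in 1 library.

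Among the genes of class II loading, Cd74 and Ifi30 rose and H2-Ob fell. Cd74, the invariant chain on chromosome 18, had 2110.2, 2001 and 2609 normalized counts in the TFEB 4-OHT libraries, 1482, 1180.3 and 1825 in the TFEB vehicle libraries, 1167, 706 and 767 in the vector 4-OHT libraries and 748, 600.4 and 521 in the vector vehicle libraries. The order of the groups was TFEB 4-OHT, TFEB vehicle, vector 4-OHT and vector vehicle, and only the vector groups overlapped each other. The rise in TFEB cells was 1.51-fold (log2 change 0.60 ± 0.16 SE, limma adjusted p = 0.00442), and the adjusted p was 0.0517 without TFEB 4-OHT library 3, 0.0546 without TFEB vehicle library 2 and 0.0503 with DESeq2. With no variance trend the limma adjusted p of Cd74 was 0.109. Ifi30, a thiol reductase of lysosomes that opens disulfide bonds of antigens, had 566, 671 and 594 normalized counts in the TFEB 4-OHT libraries, 328, 395 and 258 in the TFEB vehicle libraries, 355, 308 and 279.9 in the vector 4-OHT libraries and 242, 181 and 273 in the vector vehicle libraries. Its TFEB 4-OHT libraries exceeded all 9 others, and Ifi30 rose 1.89-fold (log2 change 0.92 ± 0.19 SE, limma adjusted p = 0.000365), under every one of the 22 alternatives. The printed Ifi30 promoter holds TCACGTGA, and whether TFEB binds it in these cells was not tested.

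H2-Ob, the beta chain of H2-O at chr17:34238903-34254414, had 358, 330.4 and 411 normalized counts in the TFEB 4-OHT libraries, 989, 926 and 832 in the TFEB vehicle libraries, 785, 839 and 549.6 in the vector 4-OHT libraries and 779, 1077 and 973 in the vector vehicle libraries. All TFEB 4-OHT libraries were below all 9 others, and H2-Ob fell 2.5-fold (log2 change -1.32 ± 0.15 SE, limma adjusted p = 2.51e-08) under all 22 alternatives. Its partner H2-Oa had 109.8, 74.9 and 101 normalized counts in the TFEB 4-OHT libraries, against 130.2, 154 and 166 in the TFEB vehicle libraries. The groups did not overlap, and the log2 change was -0.66 ± 0.32 (limma adjusted p = 0.131). Per kilobase, H2-Ob was 1.02 ± 0.154 times H2-Oa in TFEB cells with 4-OHT, 1.62 ± 0.339 in TFEB cells with vehicle, 1.77 ± 0.138 in vector cells with 4-OHT and 2.06 ± 0.515 in vector cells with vehicle (SD, n = 3 each). These ratios rest on annotated exon lengths of 5380 bases for H2-Ob and 1407 for H2-Oa. Before division by length, H2-Ob averaged 367 normalized counts and H2-Oa 95.2 in TFEB cells with 4-OHT. The H2-DM genes, whose product H2-O inhibits, were low. H2-DMb1 had 63.5, 43.9 and 66.9 normalized counts in the TFEB 4-OHT libraries, against 105, 67.2 and 122 in the TFEB vehicle libraries (log2 change -0.72, limma adjusted p = 0.24). H2-DMa had 5.38, 14.2 and 24.3 normalized counts in the TFEB 4-OHT libraries, against 5.14, 0 and 20.7 in the TFEB vehicle libraries (log2 change 1.40, limma adjusted p = 0.386) and its groups overlapped. H2-DMb2 did not pass the filter and reached 15.5.

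Of the class II regulators 1 of 4 passed with 4-OHT in TFEB cells, a share near the 27.5% of all genes. Ciita, the class II coactivator, had 30.1, 47.8 and 18.4 normalized counts in the TFEB 4-OHT libraries, 18.9, 16 and 41.5 in the TFEB vehicle libraries, 0, 43.9 and 9.3 in the vector 4-OHT libraries and 18.4, 1.57 and 7.84 in the vector vehicle libraries. It was near the floor of detection in several libraries, the groups overlapped in each comparison, and its 95% interval for 4-OHT in TFEB cells, -1.83 to 2.52 on the log2 scale, covers large changes in either direction. Rfx5, the DNA-binding subunit of RFX, had 1199.9, 1167 and 1256 normalized counts in the TFEB 4-OHT libraries, against 1071, 901 and 963 in the TFEB vehicle libraries. It rose 1.24-fold with groups that did not overlap (log2 change 0.31 ± 0.11 SE, limma adjusted p = 0.0371), but leaving out any of 5 of the 6 TFEB libraries ended the call. The adjusted p was 0.0791, 0.0592 and 0.13 without TFEB 4-OHT libraries 1, 2 and 3, 0.138 and 0.0728 without TFEB vehicle libraries 2 and 3, and 0.104 with edgeR. With no variance trend the limma adjusted p of Rfx5 was 0.0638. Rfxank, another RFX subunit, had 282, 332 and 309 normalized counts in the TFEB 4-OHT libraries, against 249, 193 and 238 in the TFEB vehicle libraries (log2 change 0.44, limma adjusted p = 0.124). Rfxap, the RFX-associated protein, had 585, 539.6 and 612 normalized counts in the TFEB 4-OHT libraries, against 572, 565 and 662 in the TFEB vehicle libraries (log2 change -0.05, limma adjusted p = 0.874). Groups overlapped for Rfxap and did not for Rfxank. H2-Ke2, which codes for a prefoldin subunit, and H2-Ke6, a hydroxysteroid dehydrogenase gene, carry the H2- prefix for their place in the complex, and their log2 changes were 0.04 for H2-Ke2 and -0.07 for H2-Ke6.

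**Figure D2:**
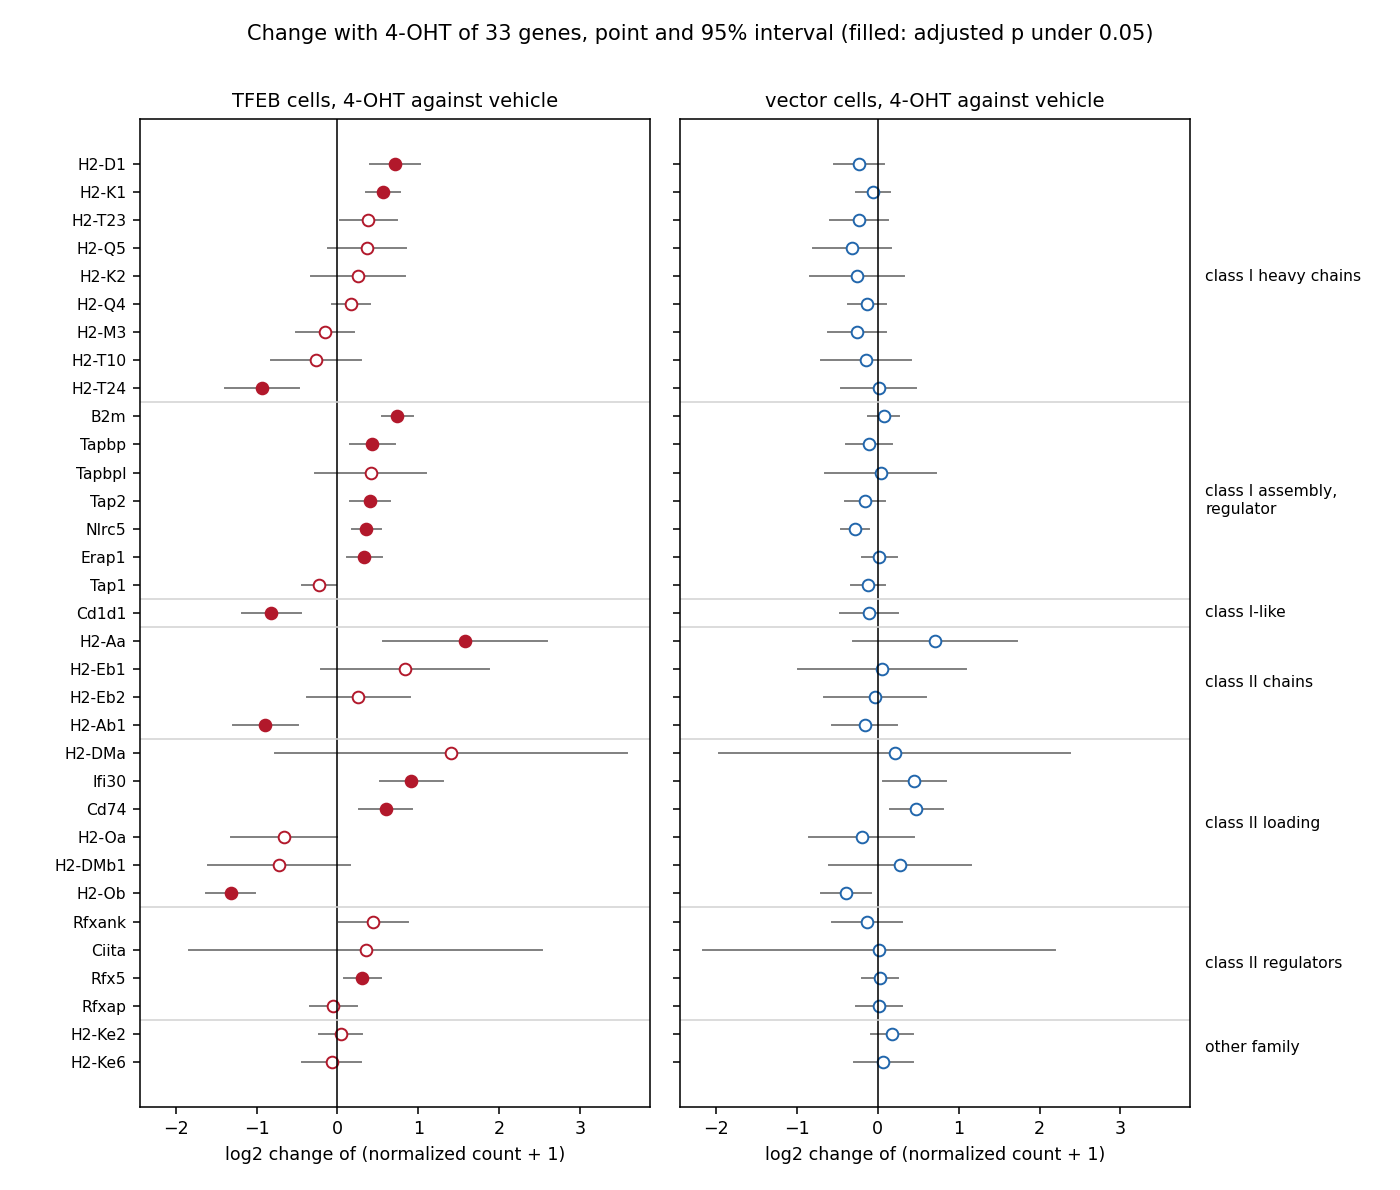
Log2 change of (normalized count + 1) with 4-OHT against vehicle (x axis) for the 33 genes (rows, grouped by role) in TFEB cells (left) and vector cells (right), as points with 95% intervals; filled points passed an adjusted p of 0.05. On the left 15 points are filled, from -1.32 for H2-Ob to 1.58 for H2-Aa, and on the right none is.

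Summed over the 9 heavy chains, class I reached 7489 ± 356 normalized counts per kilobase of exon in TFEB cells with 4-OHT, 5499 ± 973 in TFEB cells with vehicle, 4764 ± 673 in vector cells with 4-OHT and 5142 ± 175 in vector cells with vehicle (SD, n = 3 each). The TFEB 4-OHT libraries, at 7682, 7078 and 7706, were above all others, the highest of which was TFEB vehicle library 2 at 6587. Summed over the 4 class II chains, the level was 273.7 ± 0.984 in TFEB cells with 4-OHT, 350.4 ± 37.8 in TFEB cells with vehicle, 240.2 ± 56.5 in vector cells with 4-OHT and 256 ± 56.7 in vector cells with vehicle. The 3 TFEB vehicle libraries, at 321, 393 and 338, were above the TFEB 4-OHT ones, and above all vector libraries except vector vehicle library 2 at 321, while both vector groups overlapped the TFEB 4-OHT range. The class II sum was thus equal to 3.66% ± 0.166 of the class I sum in TFEB cells with 4-OHT, 6.43% ± 0.645 in TFEB cells with vehicle, 5.0% ± 0.527 in vector cells with 4-OHT and 4.97% ± 0.969 in vector cells with vehicle. These ratios were 3.57%, 3.85% and 3.56% in the TFEB 4-OHT libraries and 6.17%, 5.97% and 7.17% in the TFEB vehicle libraries, with no overlap. Cd74 was 4.37% ± 0.661 of B2m in normalized counts in TFEB cells with 4-OHT, 4.91% ± 1.24 in TFEB cells with vehicle, 2.74% ± 0.554 in vector cells with 4-OHT and 2.08% ± 0.488 in vector cells with vehicle. Of the class II chains, only H2-Ab1 averaged lower per kilobase in TFEB cells with 4-OHT, at 148 ± 12.7 against 275 ± 27.8 with vehicle. H2-Aa, H2-Eb1 and H2-Eb2 averaged higher. The class I sum includes the pseudogenes H2-K2, H2-Q5 and H2-T10, and the class II sum includes the E beta chains. These sums and ratios are descriptions and were not tested.

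**Figure D3:**
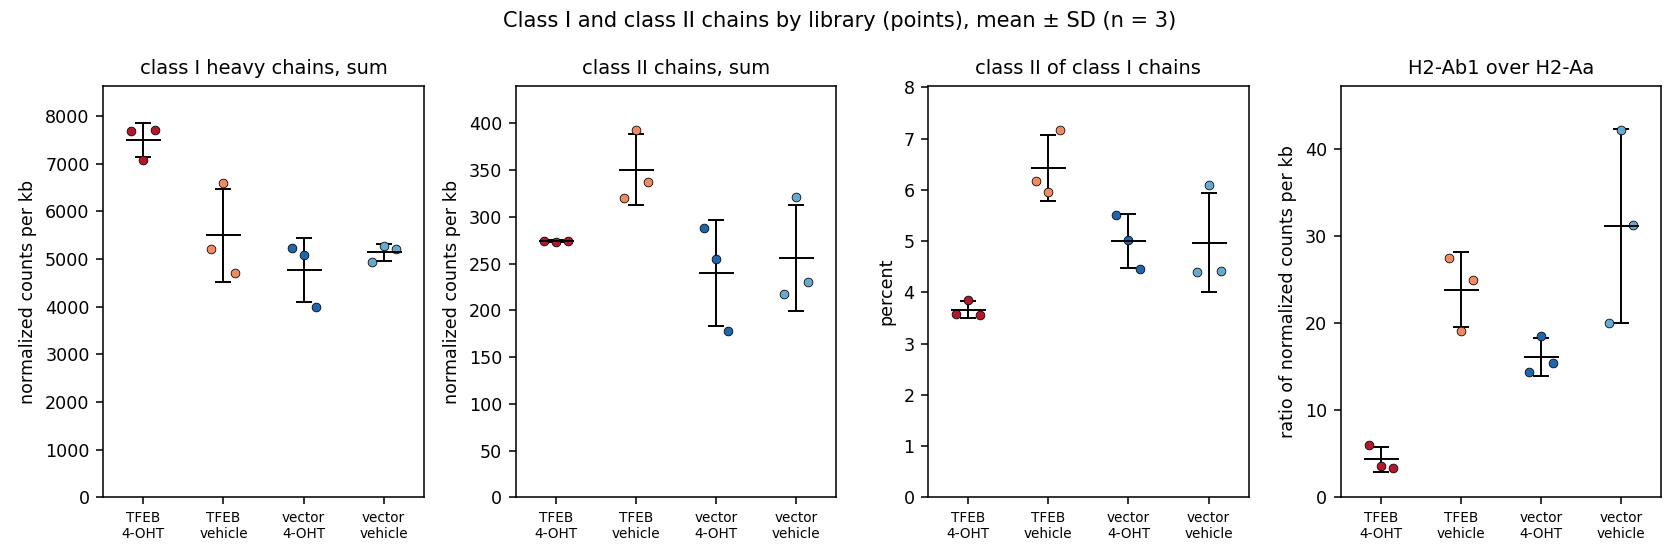
Summed normalized counts per kilobase of the 9 class I heavy chains and of the 4 class II chains, class II as a percent of class I, and H2-Ab1 over H2-Aa per kilobase (y axes, from 0) in each library (points) with group mean and SD (bars, n = 3). TFEB 4-OHT libraries are the highest in the class I sum and the lowest in both ratios, at 3.66% and 4.35 on average.

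In dendritic cells, macrophages and monocytes class II is known to be high, so their markers were set beside these values. Dendritic cell markers summed to 2043 to 2230 normalized counts in TFEB cells with 4-OHT, 157 to 285 in TFEB cells with vehicle, 185 to 352 in vector cells with 4-OHT and 195 to 272 in vector cells with vehicle. Ccr7, a chemokine receptor that B cells also express, made up nearly all of the excess, with 2097 ± 95.9 normalized counts in TFEB cells with 4-OHT, 145 ± 10.1 in TFEB cells with vehicle, 182 ± 41.1 in vector cells with 4-OHT and 207 ± 39.7 in vector cells with vehicle (SD, n = 3 each). Only 3 of 9 dendritic markers passed the filter and Batf3 was at 0 in every library. Macrophage and monocyte markers summed to 74.7 to 236 in TFEB cells with 4-OHT, 169 to 215 in TFEB cells with vehicle, 128 to 214 in vector cells with 4-OHT and 114 to 135 in vector cells with vehicle. Of the 9 found, 4 were tested, with a median log2 change of 1.05 with 4-OHT in TFEB cells, and 1 passed, Mrc1, the mannose receptor, which fell. Csf1r, the receptor of macrophage growth factor, averaged 29.2 ± 7.33 normalized counts in TFEB cells with 4-OHT, 12.3 ± 10.9 in TFEB cells with vehicle, 2.77 ± 4.79 in vector cells with 4-OHT and 4.02 ± 4.06 in vector cells with vehicle (SD, n = 3 each). It had a log2 change of 2.04 with 4-OHT in TFEB cells (limma adjusted p = 0.31) and was higher in TFEB than in vector cells with 4-OHT (limma adjusted p = 0.0354). Itgam, an integrin of myeloid cells, averaged 32 ± 39.4 normalized counts in TFEB cells with 4-OHT, 10.2 ± 16.2 in TFEB cells with vehicle, 14.9 ± 6.08 in vector cells with 4-OHT and 15.1 ± 7.65 in vector cells with vehicle (SD, n = 3 each). Its log2 change was 2.21 in TFEB cells (limma adjusted p = 0.152), and TFEB 4-OHT library 2 alone held 77.4. Fcgr1 had a log2 change of 0.06 (0.99). The part of other cell types in the class II values was not tested.

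In vector cells, no gene of the 33 passed with 4-OHT (limma; 4 had an unadjusted p under 0.05, edgeR called 0 and DESeq2 1), against 0.0153% of all genes, and groups did not overlap for 3 of them, against 10.8% of all genes. The smallest adjusted p was that of Nlrc5, whose 3 vector 4-OHT libraries were below all 3 vector vehicle libraries (log2 change -0.28 ± 0.09 SE, limma adjusted p = 0.397), and it was the gene DESeq2 called (adjusted p = 0.0409). Cd74 had a log2 change of 0.48 (95% interval 0.15 to 0.80, limma adjusted p = 0.497) and Ifi30 of 0.45 (0.06 to 0.84, limma adjusted p = 0.71), with Ifi30 libraries in 4-OHT all above those in vehicle. H2-Ob had a log2 change of -0.39 (-0.70 to -0.08, limma adjusted p = 0.637). For B2m the interval was -0.12 to 0.26 and for H2-K1 -0.27 to 0.15.

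Whether the effect of 4-OHT differed between TFEB and vector cells was tested as an interaction, which 7 of the 33 genes passed, 5 higher and 2 lower, against 15.8% of all genes (7.75% higher and 8.01% lower). Of class I 6 of 17 passed, and of class II 1 of 14. The difference in log2 change was 0.67 ± 0.13 SE for B2m (limma adjusted p = 0.000352) and 0.64 ± 0.12 SE for Nlrc5 (0.000214). It was 0.63 ± 0.14 SE for H2-K1 (limma adjusted p = 0.00208) and 0.94 ± 0.21 SE for H2-D1 (0.00184). H2-Ob differed by -0.93 ± 0.21 SE (limma adjusted p = 0.00193), the only class II gene to pass. Tap2 differed by 0.56 ± 0.17 SE (adjusted p = 0.0229), and without TFEB 4-OHT library 1, TFEB vehicle library 2, vector 4-OHT library 3 or vector vehicle library 3 the adjusted p was 0.0859, 0.0579, 0.0782 or 0.0517. H2-T24 differed by -0.94 ± 0.32 SE (adjusted p = 0.0394). Its call ended without TFEB 4-OHT library 1 (0.0593) or 2 (0.127), TFEB vehicle library 1 (0.102) or 2 (0.0528), vector 4-OHT library 1 (0.0679) or 2 (0.116), and vector vehicle library 1 (0.0879) or 2 (0.112). Without TFEB 4-OHT library 2, TFEB vehicle library 1 and vector 4-OHT library 2 together, the limma adjusted p was 0.067 for H2-D1, 0.102 for H2-Ob and 0.411 for H2-T24. With no variance trend it was 0.0867 for H2-K1, 0.111 for H2-D1, 0.0523 for H2-Ob, 0.0745 for Tap2 and 0.0898 for H2-T24.

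The remaining genes that passed in TFEB cells did not pass the interaction test. For Cd74 the difference was 0.12 ± 0.22 SE (95% interval -0.34 to 0.58, limma adjusted p = 0.835), for Ifi30 0.46 ± 0.27 SE (-0.09 to 1.02, 0.298) and for H2-Aa 0.87 ± 0.70 SE (-0.57 to 2.31, 0.509). The H2-Ab1 difference was -0.73 ± 0.28 SE (limma adjusted p = 0.0793, and 0.00259 without vector 4-OHT library 3 or 0.0203 without vector vehicle library 2). It was -0.70 ± 0.25 SE for Cd1d1 (limma adjusted p = 0.0521), which passed with edgeR (0.0389), DESeq2 (0.00577) and no variance trend (0.0172). It also passed with a minimum of 50 (0.0344), upper-quartile scaling (0.0493) and without TFEB 4-OHT library 1 (0.0389) or vector 4-OHT library 3 (0.0424). For Tapbp it was 0.54 ± 0.20 SE (limma adjusted p = 0.057), which passed with DESeq2 (0.0387) and without TFEB 4-OHT library 1 (0.0418), TFEB vehicle library 1 (0.0242) or vector 4-OHT library 2 (0.0337) or 3 (0.0465). For Erap1 it was 0.32 ± 0.15 SE (limma adjusted p = 0.175) and for Rfx5 0.28 ± 0.16 SE (0.272).

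Without the ligand, TFEB and vector cells differed in 2 of 33 genes, against 5.38% of all genes (2.89% higher and 2.49% lower), with groups that did not overlap for 10 of the 33, against 21.6% of all genes. Cd74 was 2.39-fold higher in TFEB cells with vehicle, at 1496 ± 322 against 623 ± 115 in vector cells with vehicle (SD, n = 3 each; log2 change 1.26 ± 0.16 SE, limma adjusted p = 1.97e-06), and this call held under all alternatives. H2-Q5 was 2.06-fold lower in TFEB cells (log2 change -1.04 ± 0.24 SE, limma adjusted p = 0.00522), with an adjusted p of 0.0604 when only the groups compared were fitted. With no variance trend the limma adjusted p of H2-Q5 was 0.0844. H2-Ab1 had a log2 difference of 0.55 (limma adjusted p = 0.11), with all TFEB vehicle libraries above all vector vehicle libraries by a narrow margin, and the adjusted p was 0.0331 without vector vehicle library 2 and 0.0357 without vector 4-OHT library 3. For H2-K1 the log2 difference was 0.25 (limma adjusted p = 0.175) and for Ifi30 0.49 (0.144).

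In 4-OHT, 15 of 33 genes differed between TFEB and vector cells, 11 higher and 4 lower, against 27.1% of all genes (13.6% higher and 13.5% lower), and groups did not overlap for 18 of them, against 39.1% of all genes. This comparison shares the TFEB 4-OHT libraries with the one within TFEB cells. Cd74 was 2.59-fold higher in TFEB cells, H2-K1 1.83-fold, Ifi30 1.94-fold, H2-D1 1.72-fold, B2m 1.61-fold and Nlrc5 1.37-fold, with limma adjusted p of at most 0.000202 for each. H2-Ob was 1.95-fold lower (log2 change -0.96 ± 0.15 SE, limma adjusted p = 6.6e-06). H2-Ab1, which fell with 4-OHT within TFEB cells, had a log2 difference of -0.18 from vector cells here (limma adjusted p = 0.601).

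The other 8 calls in this comparison ended under at least 1 alternative. H2-Aa was 3.32-fold higher (limma adjusted p = 0.00829, and 0.0688 without TFEB 4-OHT library 3), and H2-K2 1.95-fold higher (0.00986, and 0.0527 without TFEB 4-OHT library 3). Tap2 was 1.27-fold higher (0.0318, with 0.178 and 0.0537 without TFEB 4-OHT libraries 1 and 3 and 0.214 without vector 4-OHT library 3). H2-T23 was 1.41-fold higher (0.032, with 0.114 and 0.0723 without TFEB 4-OHT libraries 1 and 2 and 0.0967 and 0.196 without vector 4-OHT libraries 2 and 3). H2-Eb2 was 1.81-fold higher (0.0386, with 0.135 and 0.181 without TFEB 4-OHT libraries 1 and 2 and 0.0524, 0.104 and 0.0686 without vector 4-OHT libraries 1, 2 and 3). H2-T24 was 1.69-fold lower (0.0102, with 0.0854 without TFEB 4-OHT library 2 and 0.0661 without vector 4-OHT library 2), and Cd1d1 1.45-fold lower (0.021, with 0.108 without TFEB 4-OHT library 3 and 0.0819 without vector 4-OHT library 2). H2-Ke2 was 1.30-fold lower (0.0257, with 0.0668, 0.055 and 0.0701 without TFEB 4-OHT libraries 1, 2 and 3 and 0.208 without vector 4-OHT library 1). Another 5 genes, not called here, were called under at least 1 alternative. DESeq2 called Rfxank (adjusted p = 0.0128), Tapbpl (0.0246) and Rfx5 (0.0291). Without vector 4-OHT library 2, H2-Q4 (limma adjusted p = 0.0156) and Ciita (0.0251) passed as higher.

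Other genes of the route were counted with 4-OHT in TFEB cells from lists of 5 to 16 genes and 1 pair. Of all genes tested, 27.5% passed in this comparison, 13.7% higher and 13.9% lower. In the endosomal and lysosomal list 6 of 11 tested genes rose and 1 fell, with a median log2 change of 0.56, and the protease genes Lgmn (7.15-fold), Ctsd (2.19-fold), Ctsb (1.85-fold) and Ctsc (1.75-fold) rose. In the list of chaperones and peptidases of the endoplasmic reticulum and cytosol 4 of 11 rose and 3 fell, with a median of 0.19. Calr, the lectin chaperone of class I loading, rose 1.94-fold and Pdia3, its disulfide isomerase partner, 1.71-fold, whereas the cytosolic peptidases Lap3 and Blmh fell 1.32-fold and 1.31-fold. The Lap3 call ended without TFEB 4-OHT library 2 (limma adjusted p = 0.0751).

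The immunoproteasome list had 1 of 5 higher and 2 lower, against 13.7% of all genes higher and 13.9% lower, with a median of 0.27. The catalytic subunit genes Psmb9 and Psmb8 fell 1.45-fold and 1.31-fold, and the activator Psme1 rose 1.25-fold. The Psmb9 call ended without TFEB 4-OHT library 2 (adjusted p = 0.171) or TFEB vehicle library 3 (0.0904), and that of Psme1 without TFEB vehicle library 2 (0.0918). Of 9 partners of CIITA and RFX 3 rose and 2 fell, with a median of 0.24. Smarca4, a chromatin remodelling ATPase, rose 1.48-fold, the acetyltransferases Ep300 and Crebbp rose 1.24-fold and 1.23-fold, and the NF-Y subunit Nfyb fell 1.36-fold, a call that ended without TFEB 4-OHT library 2 (0.0513) or TFEB vehicle library 2 (0.0754).

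Of interferon gamma signalling and its regulators 15 of 16 were tested, 2 rose and 4 fell, with a median of 0.03. Socs1, an inhibitor of this signalling, fell 1.92-fold, the transcription factor Irf8 fell 1.56-fold, the receptor chain Ifngr2 1.54-fold and the kinase Jak1 1.36-fold. Of the costimulatory and inhibitory ligands 6 of 10 were tested and 2 rose, with a median of 1.24. These were the PD-1 ligands. Cd274 had 495, 416 and 467 normalized counts in the TFEB 4-OHT libraries, 150.0, 196 and 177 in the TFEB vehicle libraries, 149, 93.7 and 41.4 in the vector 4-OHT libraries and 139, 153 and 159 in the vector vehicle libraries. It rose 2.63-fold (log2 change 1.40 ± 0.31 SE, limma adjusted p = 0.000678), with no overlap between the TFEB 4-OHT libraries and any other group. Pdcd1lg2 had 221, 263 and 241 normalized counts in the TFEB 4-OHT libraries, 3.43, 0 and 6.91 in the TFEB vehicle libraries, 0, 26.1 and 0 in the vector 4-OHT libraries and 0, 7.08 and 0 in the vector vehicle libraries. Its reads were near the floor of 3 reads outside TFEB cells with 4-OHT except in vector 4-OHT library 2 (log2 change 6.21 ± 1.28 SE, limma adjusted p = 0.000307, a value that depends on the pseudocount). Of the class II ubiquitin ligases, March8 was tested and had a log2 change of 0.38 (adjusted p = 0.0852). All genes together had, as above, a median of 0.04, with 27.5% past the threshold (13.7% higher and 13.9% lower). The share was 33.3% in the ligand list, near that of all genes, and 40% in the interferon list. In vector cells no gene of these lists passed with 4-OHT, though Calr did without vector 4-OHT library 2 (limma adjusted p = 0.0342). The interaction was passed by 6 of 11 endosomal and lysosomal genes and 4 of 11 chaperones and peptidases, against 15.8% of all genes. It was passed by 2 of 9 partners of CIITA and RFX, 2 of 15 interferon genes (Irf8 and Jak1) and 2 of 6 ligands. March8 and the immunoproteasome list (smallest limma adjusted p = 0.125) had no call in it. Several of these interaction calls ended with no variance trend. The limma adjusted p was then 0.133 for Calr, 0.112 for Pdia3 and Nfyb, 0.093 for Irf8, 0.134 for Jak1 and 0.111 for Pdcd1lg2. With edgeR the adjusted p was 0.0624 for Nfyb and 0.0649 for Pdcd1lg2, and DESeq2 gave 0.41 for Pdcd1lg2.

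**Figure D4:**
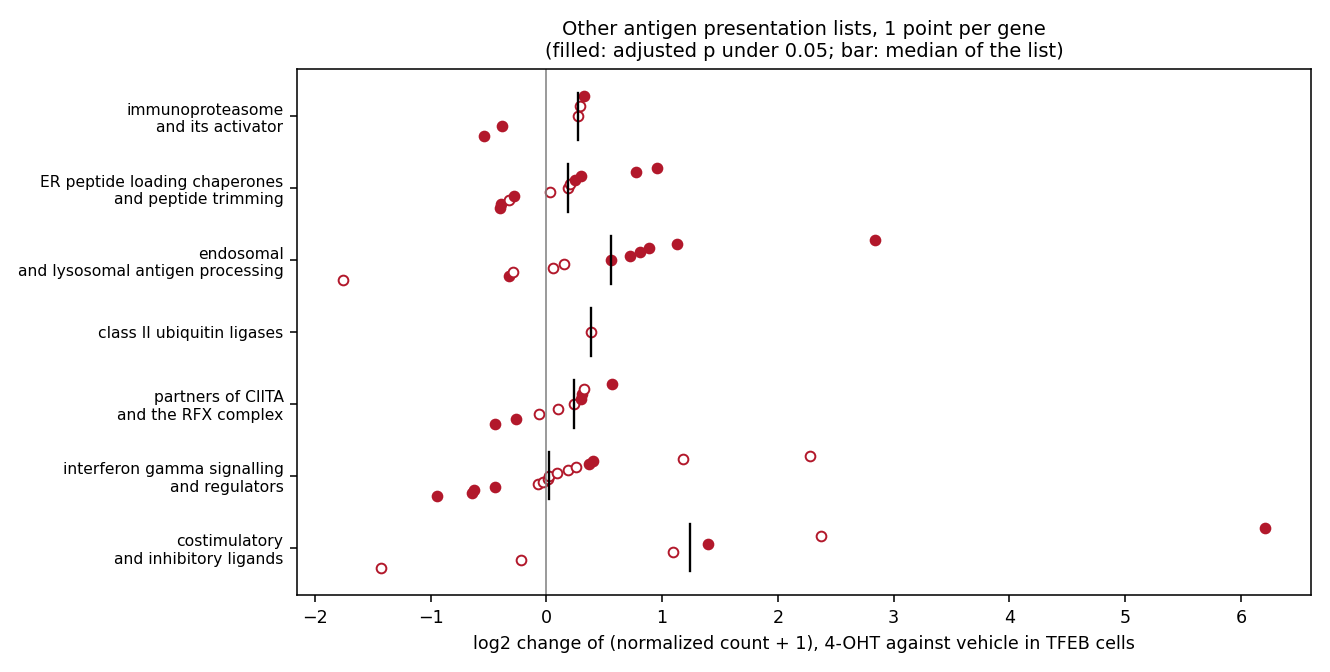
Log2 change of (normalized count + 1) with 4-OHT against vehicle in TFEB cells (x axis) for tested genes (points, 1 per gene) of 7 further lists (rows), filled where the adjusted p was under 0.05, with the list median as a bar. The endosomal and lysosomal list has a median of 0.56 and reaches 2.84 for Lgmn, and the ligand list reaches 6.21 for Pdcd1lg2.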

How the data were processed

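The authors deposited normalized read counts, a signal per gene and library in which gene counts were divided by a size factor common to the library. The tools were, per the submitters' processing notes, HTSeq 0.6.1, STAR 2.5.3 and DESeq2 1.6.3, on mm10; the sources used here do not give their roles, the annotation, filters or strand use. The labels' protocols name a NuGEN Ovation kit. All values above 0 (100%) were whole multiples of a library's smallest within 0.001, so whole reads were recovered. Libraries of a group differed by a chi-square per degree of freedom of 7.88 to 25.5. Floors of 3 reads cover counting error only.

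Genes reaching 10 in 3 or more libraries were tested with limma 3.58.1 (R 4.3.3) on log2(value + 1), with a variance trend, group means over all 12 libraries (8 residual degrees of freedom) and Benjamini-Hochberg adjustment over 13111 genes at 0.05, and the method was checked on simulated data. Alternatives were edgeR 4.0.16 (quasi-likelihood) and DESeq2 1.42.0 on whole reads, other filters, scalings and pseudocounts, and fewer libraries. Gene positions and exon lengths come from GENCODE M21 (GRCm38, which mm10 names). A length merges the exons of all annotated transcripts of a gene, so values, ratios and sums per kilobase depend on that choice. The genes and lists were chosen with earlier results of these data known. Every gene passing the filter is named; each further list names up to 4 genes with the largest change past the threshold, or that with the smallest adjusted p. Markers were named after their values were seen.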

Additional observations from a re-analysis of the deposited data

Results flagged for a closer look

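For 7 genes the effect of 4-OHT on the scale of log2(value + 1) differed between TFEB and vector cells by limma's interaction term. B2m had a log2 change of 0.74 in TFEB cells and 0.07 in vector cells, a difference of 0.67 ± 0.13 SE. H2-K1 had a log2 change of 0.57 in TFEB cells and -0.06 in vector cells, a difference of 0.63 ± 0.14 SE. H2-D1 had a log2 change of 0.71 in TFEB cells and -0.23 in vector cells, a difference of 0.94 ± 0.21 SE. Nlrc5 had a log2 change of 0.36 in TFEB cells and -0.28 in vector cells, a difference of 0.64 ± 0.12 SE. Tap2 had a log2 change of 0.40 in TFEB cells and -0.15 in vector cells, a difference of 0.56 ± 0.17 SE. H2-Ob had a log2 change of -1.32 in TFEB cells and -0.39 in vector cells, a difference of -0.93 ± 0.21 SE. H2-T24 had a log2 change of -0.93 in TFEB cells and 0.01 in vector cells, a difference of -0.94 ± 0.32 SE.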

How the results depend on the processing

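Of the calls among the 33 genes, 7 of 15 with 4-OHT in TFEB cells, 2 of 7 in the interaction, 1 of 2 between TFEB and vector cells with vehicle and 7 of 15 between them in 4-OHT held under each alternative run, and no called change turned its direction in any of them; fitting only the groups compared does not apply to the interaction. With no variance trend 4-OHT in TFEB cells gave 10 of the 33 genes against 15. With no variance trend the interaction gave 3 of the 33 genes against 7, and TFEB against vector cells with vehicle gave 1 against 2, as did fitting only the groups compared. Without TFEB 4-OHT library 2, TFEB vehicle library 1 and vector 4-OHT library 2 together, each the library with the most genes with reads in its group and chosen after the data were seen, the interaction gave 4 and TFEB against vector cells with 4-OHT 9 against 15. DESeq2 called 1 of the 33 in vector cells against 0. Over all genes, 4-OHT in vector cells called 2; a minimum of 50, upper-quartile scaling, edgeR, no variance trend and only the groups compared each gave 0, DESeq2 gave 48, and leaving out these 3 libraries gave 11. TFEB against vector cells with vehicle called 705 genes, against 1224 with DESeq2, 259 with no variance trend and 352 with only the groups compared. The cause of these shifts was not tested.

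Leaving out 1 library at a time gave 11 to 15 of the 33 genes with 4-OHT in TFEB cells, 0 in vector cells, 6 to 9 in the interaction, 2 to 3 between TFEB and vector cells with vehicle and 10 to 17 in 4-OHT; the lowest counts of the first and the last of these came without TFEB 4-OHT library 3. Over all genes the counts were 2975 to 3734, 0 to 55 (55 without vector 4-OHT library 2), 1773 to 2108, 433 to 824 (433 without vector vehicle library 3) and 2973 to 3752. With the replicate number as a block the counts among the 33 genes were 15, 0, 8, 2 and 15. The numbers did not pair the libraries across all groups: over 18 same-numbered pairs the correlation of deviations ran from -0.54 to 0.67, and 4 exceeded 0.1. Between TFEB and vector cells in 4-OHT it was 0.34, 0.67 and 0.077 for numbers 1, 2 and 3. Among genes of higher mean counts these correlations were 0.00059, -0.0058 and -0.022. Low genes limit what can be seen, since 3 reads are 2.21 to 4.15 normalized counts and Ciita and H2-DMa lay near that level in several libraries.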
